A study of Mus musculus with 27 samples.

Results

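The 9 genes described here encode the core of hepatic insulin signaling: the insulin receptor Insr, its substrates Irs1 and Irs2, the phosphoinositide 3-kinase (PI 3-kinase) subunits Pik3r1 and Pik3ca, the kinases Akt1 and Akt2, and the transcription factors Foxo1 and Foxo3. They were taken by symbol from a table of 23191 gene symbols, and all 9 were found and passed the filter on low counts in every comparison. Liver RNA-Seq was available from 27 male C57BL/6J mice. The design crossed genotype with diet, and 7 littermate controls and 6 HGFAC-KO mice received chow while 7 controls and 7 HGFAC-KO mice received a diet high in fat and sucrose (HF/HS). Mice were 8 weeks old when the diets began, and livers were taken after 4 weeks. HGFAC-KO mice lacked Hgfac, a secreted serine protease that activates hepatocyte growth factor, in the whole body through a CRISPR/Cas9 deletion that takes part of exon 1 and the whole of exon 2. Chow-fed mice served as the diet controls and littermates as the genotype controls, and the labels name no other allele or agent. Feeding state and hour of tissue collection for these libraries were not given in the sources used here. For its liver triglyceride measurements in mice of these groups the study gives an overnight fast and a refeeding, and whether the sequenced livers came from those mice is not stated. Whole liver was measured, so fewer cells of a type and less RNA per cell cannot be told apart.

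Insulin binding activates the kinase of its receptor, which phosphorylates the docking proteins IRS1 and IRS2. These recruit PI 3-kinase, the lipid product of PI 3-kinase activates AKT, and AKT phosphorylates FOXO factors so that they leave the nucleus. In hepatocytes this arrests FOXO-driven transcription of gluconeogenic genes, and FOXO1 is also known to activate Irs2 and Insr when insulin is low. Much of the pathway is therefore regulated by phosphorylation, which mRNA levels do not measure.

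RefSeq (GRCm38.p6) promoter entries matched 8 of the 9 genes, with 13 windows in all, and each window was read over the 250 bases before the annotated start. The sequences of the substrates are shown because Irs1 and Irs2 shared a motif pair, and those of Pik3r1 and Foxo1 because these genes passed the test in a diet comparison below. Each is written 5′ to 3′ on the gene's strand, and capitals mark matches on either strand to the E-box CACGTG, the insulin response element core TGTTTTG or the GC box GGGCGG, including the reverse complement CCGCCC. The windows lie at chr1:82291440-82291689 (Irs1, minus strand), chr8:11008930-11009179 (Irs2, minus strand), chr13:101768218-101768467 (Pik3r1, minus strand) and chr3:52268087-52268336 (Foxo1, plus strand).
Irs1: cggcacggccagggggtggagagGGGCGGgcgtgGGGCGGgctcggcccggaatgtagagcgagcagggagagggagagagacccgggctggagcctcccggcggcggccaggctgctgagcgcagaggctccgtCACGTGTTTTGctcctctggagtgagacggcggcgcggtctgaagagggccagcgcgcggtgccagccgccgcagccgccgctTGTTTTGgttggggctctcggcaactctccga
Irs2: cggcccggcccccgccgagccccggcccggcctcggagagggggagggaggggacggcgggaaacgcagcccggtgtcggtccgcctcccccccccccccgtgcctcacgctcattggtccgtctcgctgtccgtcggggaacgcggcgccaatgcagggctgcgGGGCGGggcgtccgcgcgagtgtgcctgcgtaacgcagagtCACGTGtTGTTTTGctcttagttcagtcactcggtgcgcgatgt
Pik3r1: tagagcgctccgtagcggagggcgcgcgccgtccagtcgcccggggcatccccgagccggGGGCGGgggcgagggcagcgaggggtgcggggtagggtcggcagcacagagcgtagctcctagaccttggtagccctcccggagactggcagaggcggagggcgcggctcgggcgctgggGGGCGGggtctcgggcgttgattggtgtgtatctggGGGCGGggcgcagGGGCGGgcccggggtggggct
Foxo1: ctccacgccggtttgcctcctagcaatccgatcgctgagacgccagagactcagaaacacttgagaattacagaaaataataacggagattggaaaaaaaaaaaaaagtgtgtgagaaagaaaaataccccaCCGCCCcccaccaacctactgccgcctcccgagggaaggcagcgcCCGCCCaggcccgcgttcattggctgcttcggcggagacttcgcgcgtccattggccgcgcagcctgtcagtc

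Counted back from the base before the start as -1, the Irs2 window held CACGTG at -44 with TGTTTTG beginning at -37. In the Irs1 window CACGTG began at -115 and ran into TGTTTTG at -111, sharing 2 bases with it, and another TGTTTTG stood at -32. Among all 32851 windows of that length, CACGTG was present in 6.02%, TGTTTTG or its reverse complement in 5.56%, and both in 0.295%. The motifs began within 10 bases of each other in 7 windows (0.0213%), and those belonged to 7 genes, Irs1, Irs2 and Irs4 among them. The distance of 10 bases was chosen after the sequences had been seen. Of the 2 Pik3r1 windows, the one shown held 4 GC boxes, and the other, at chr13:101692631-101692880, held none of the motifs searched. The Foxo1 window held 2 GC boxes, an element found in 32.7% of all windows. GTAAACA, a sequence that FOXO factors bind, was present in 3.17% of windows and, among the 13 windows here, once, in an Akt1 window. The insulin response element core, found in the Irs1 and Irs2 windows, was counted apart from it. These matches describe letters and say nothing of factor binding.

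Libraries held between 36056177 and 57298657 counts (median 47239271), and each of the 9 genes had at least 182 counts in every mouse, and the spread between mice includes that counting error. Hgfac was lower in every HGFAC-KO mouse than in every control on the same diet, at 37.4% of the control mean on chow and 33.8% on HF/HS. The reads that remained cover a transcript of which only part was deleted. The 7 hepatocyte markers summed to 74695 to 89909 CPM in controls and 81279 to 96957 CPM in HGFAC-KO mice on chow (medians 78597 and 89604), and to 71740 to 92289 and 83375 to 108488 CPM on HF/HS (medians 76159 and 99338). CPM is the unit used throughout for counts scaled to library size. The 10 most abundant genes took 16.3% to 18.2% of the counts in controls, and 17.3% to 19.9% in HGFAC-KO mice, a difference whose part in the results was not tested.

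Per kilobase of exon, the kinases led. Akt1, the broadly expressed AKT, had a median of 18.6 CPM per kilobase over the 27 mice and Akt2, the form tied to insulin's metabolic actions, 12.4. Pik3r1 (11.2) and Insr (8.96) followed, then Irs1 (5.40), Foxo1 (4.15), Pik3ca (3.77), Foxo3 (2.01) and Irs2 (1.69). Akt1 exceeded Akt2, and Pik3ca exceeded Foxo3, in 27 of 27 mice with no overlap of their ranges. The order of Akt1 and Akt2 rests on the division by length. Before it, Akt2 had the higher mean in every group, at 87.4 against 78.9 CPM in controls on chow. Foxo3 exceeded Irs2 in 18 of 27 mice, and the remaining neighbours also overlapped in range. Length was the union of all annotated exons, so a gene whose liver transcripts use few of them is understated.

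Of the 9 genes, Irs2 varied most from mouse to mouse in every group. Its coefficient of variation within a group ran from 20.8% to 30.8%, against 4.24% to 6.04% for Akt2. The median over all 13932 genes tested was 10.3% to 12.9%. Irs2 ranged from 4.78 to 16.0 CPM over all mice. Its exons overlap those of 9530052E02Rik on the opposite strand, a gene with 787 counts in all, and the strand setting of the counting was not given in the sources used here. Exons of Foxo1 and Irs1 overlap those of Gm20402 and Gm9747, respectively, also on the opposite strand, and neither of these symbols was counted.

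**Figure D1:**
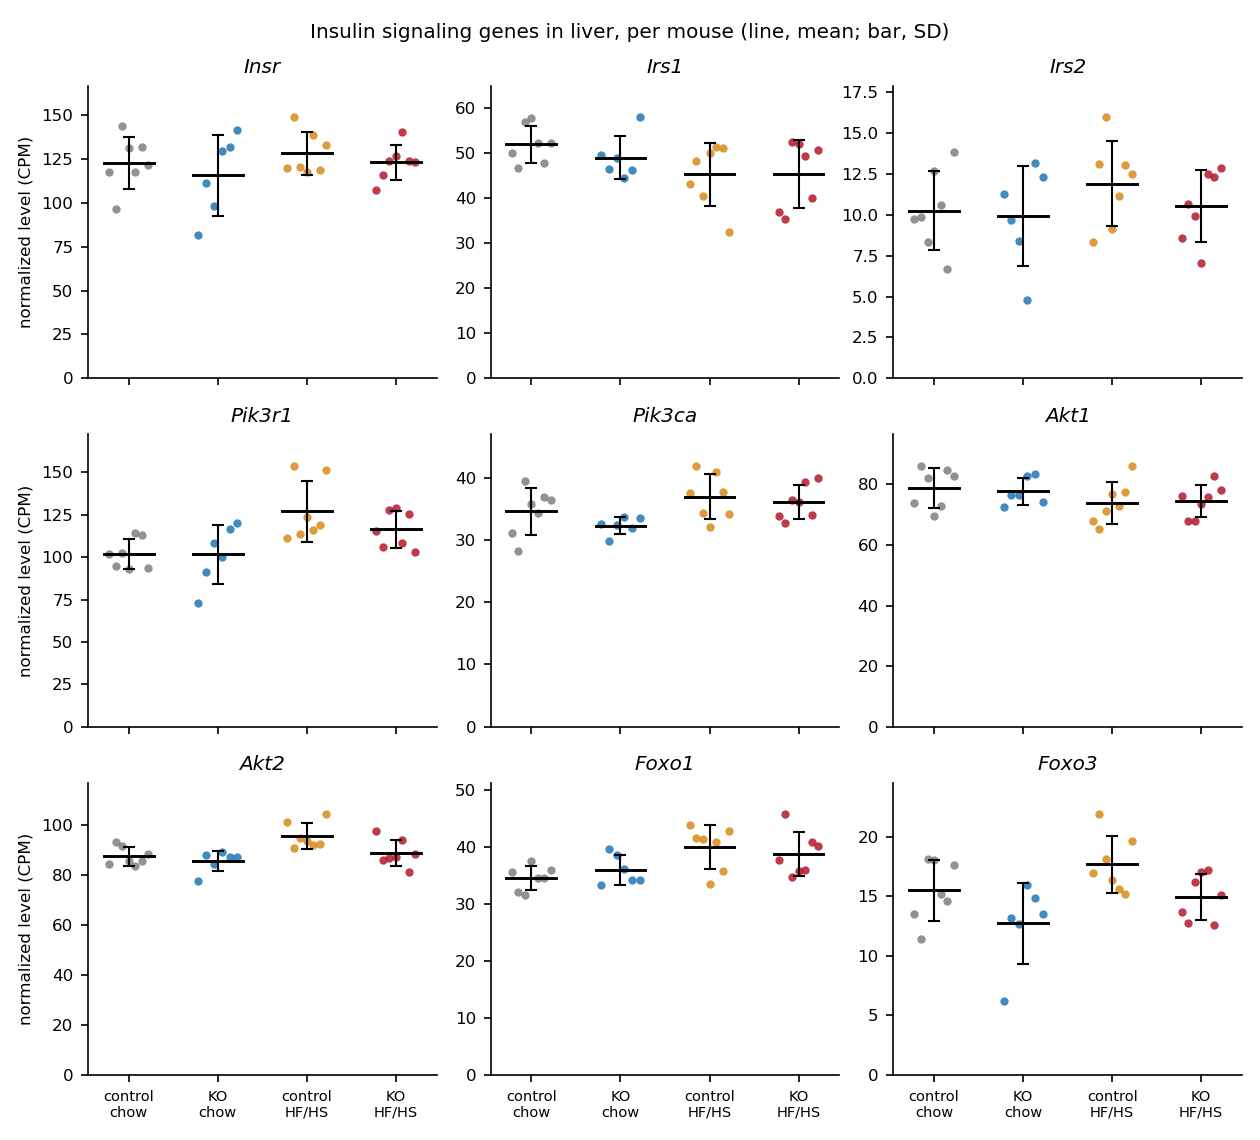
TMM-normalized level (CPM, linear axis from 0) of each of the 9 genes in every mouse, by genotype and diet; points are mice, horizontal lines are group means and bars are SD (n = 7, 6, 7 and 7). Groups overlap in every panel, Pik3r1 sits highest in controls on HF/HS (111.4 to 154.0 CPM), and 1 HGFAC-KO mouse on chow has the lowest Foxo3 value, 6.20 CPM.

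The comparison of diets asked how HF/HS feeding altered these transcripts in each genotype. In controls, 2 of the 9 genes, Pik3r1 and Foxo1, were called higher on HF/HS by edgeR's quasi-likelihood test at an adjusted p of 0.05, where 4.93% of 13525 genes were called higher and 10.5% were called in either direction. In HGFAC-KO mice none of the 9 genes was called, where 5.89% of 13613 genes were called. There 1 of the 9 reached an unadjusted p under 0.05, beside 22.4% of all genes, and in controls 4 did, beside 25.4%. The median log2 fold change of the 9 genes was 0.13 in controls and 0.09 in HGFAC-KO mice, against 0.0036 and 0.0037 over all genes. The genotypes share no mice in these comparisons, and the sign of the diet difference was the same in both for 9 of 9 genes, as it was for 73.3% of the 13469 genes tested in both and 33 of 49 other insulin pathway genes. For Irs2 the sign in HGFAC-KO mice turned when HGFAC-KO chow replicate 4 was left out. Markers of sinusoidal endothelium summed to 113.5 to 194.0 CPM (median 150.7) in chow-fed controls and 138.6 to 231.6 CPM (median 187.5) in HF/HS-fed controls, with none of 6 called, and those of Kupffer cells to medians of 190.5 and 205.3 CPM, with none of 7 called. Of 7 stellate cell markers Lrat was called lower, while the sum had medians of 232.1 and 245.0 CPM, and of 5 lymphocyte markers tested Cd4 was called higher, with summed medians of 2.56 and 3.98 CPM. The part of these cells in the diet differences was not tested.

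At the receptor, Insr spanned 96.3 to 143.6 CPM in chow-fed controls (median 121.5) and 117.7 to 148.7 CPM in HF/HS-fed controls (median 120.7). Among HGFAC-KO mice it spanned 81.6 to 141.7 CPM with chow (median 120.4) and 107.3 to 140.2 CPM with HF/HS (median 123.8). The groups overlapped almost throughout. The fitted HF/HS level was 104% of chow in controls (95% interval 92.9% to 117%, adjusted p = 0.683) and 106% in HGFAC-KO mice (90.5% to 125%, adjusted p = 0.677). Both differences depended on single mice. In controls the log2 value was 0.06, and 0.0081 without control chow replicate 2, and in HGFAC-KO mice it was 0.09, and 0.0016 without HGFAC-KO chow replicate 1, the mouse at 81.6 CPM.

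The substrates had point estimates of opposite sign, and neither passed the test. Irs1 had a mean of 51.9 ± 4.15 CPM (SD, n = 7) in controls on chow and 45.2 ± 6.96 (n = 7) on HF/HS. All 7 controls on HF/HS lay below the chow median of 52.0, and 3 lay below every control on chow. The log2 fold change was -0.20 (SE 0.09, adjusted p = 0.175) in controls and -0.11 (SE 0.10, adjusted p = 0.554) in HGFAC-KO mice. Irs2, the substrate that FOXO1 is known to activate, averaged 10.2 ± 2.43 and 11.9 ± 2.61 CPM in controls on chow and HF/HS, at a log2 fold change of 0.21 (SE 0.16, adjusted p = 0.458). Without control HF/HS replicate 7 the Irs1 value in controls was -0.13, and without control HF/HS replicate 3 that of Irs2 was 0.13. In HGFAC-KO mice the Irs1 value was -0.057 without HGFAC-KO chow replicate 6. The Irs2 level on HF/HS in HGFAC-KO mice was 106% of chow, and the interval was wide (78.4% to 143%). The log2 value of 0.08 was -0.060 without HGFAC-KO chow replicate 4.

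Pik3r1, the p85α regulatory subunit that binds the phosphorylated substrates, showed the largest diet difference of the 9 genes in controls. Controls on chow ranged from 93.1 to 114.5 CPM (median 101.6) and controls on HF/HS from 111.4 to 154.0 (median 118.7). Each HF/HS control exceeded the chow median and 5 of 7 exceeded every chow control, so the groups met only at their edges. The HF/HS level was 124% of chow (95% interval 110% to 140%), a log2 fold change of 0.32 (SE 0.08, adjusted p = 0.0220), and a two-sided exact permutation test over the 14 mice gave p = 0.00350. Without control chow replicate 2 the adjusted p was 0.0511, and with any other control left out it stayed at or under 0.0460. With the replicate number fitted as a block the call was lost (log2 0.31, adjusted p = 0.0887 by edgeR). The 2 highest mice were at 154.0 and 151.2 CPM. With 1 of them left out at a time the log2 fold change was 0.27 (adjusted p = 0.0412 and 0.0356 by edgeR), and leaving out both together was not run.

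Among HGFAC-KO mice, Pik3r1 spanned 72.8 to 119.9 CPM with chow (median 104.3) and 103.1 to 128.9 CPM with HF/HS (median 115.3). The difference was 0.20 on the log2 scale (SE 0.10, adjusted p = 0.275) and was not called, and it was 0.11 without HGFAC-KO chow replicate 1, the mouse at 72.8 CPM. All annotated starts of Pik3r1 are counted on 1 row, so its long and short forms were not separated. Pik3ca, the catalytic p110α subunit, had the smallest adjusted p of the 9 genes in HGFAC-KO mice. It ran from 29.8 to 33.6 CPM (median 32.5) on chow and from 32.7 to 39.9 (median 36.01) on HF/HS, where 6 of 7 mice exceeded every chow-fed HGFAC-KO mouse. Its log2 fold change was 0.16 (SE 0.06, unadjusted p = 0.0125 by edgeR, adjusted p = 0.106), and in controls it was 0.09 (SE 0.08, adjusted p = 0.491), or 0.05 without control chow replicate 2.

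The AKT kinases had point estimates of opposite sign. Akt2 spanned 83.8 to 93.1 CPM in chow-fed controls (median 85.5) and 90.6 to 104.3 CPM in HF/HS-fed controls (median 93.7). All 7 HF/HS controls lay above the chow median and 4 above every chow control. The fold change was small, 109% of chow (95% interval 102% to 116%), with an unadjusted p of 0.0101 and an adjusted p of 0.0754 by edgeR. DESeq2 called it at an adjusted p of 0.0221. In HGFAC-KO mice Akt2 on HF/HS was 104% of chow (96.1% to 112%). Akt1 was at 93.5% of chow in controls (85.1% to 103%, adjusted p = 0.381) and at 95.9% in HGFAC-KO mice (88.4% to 104%, adjusted p = 0.559).

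Among the FOXO factors, which AKT inactivates, Foxo1 spanned 31.5 to 37.6 CPM in chow-fed controls (median 34.6) and 33.5 to 43.9 CPM in HF/HS-fed controls (median 41.3). Of the HF/HS controls, 5 exceeded every chow control, and the other 2, at 33.5 and 35.7 CPM, lay inside the chow range. The log2 fold change was 0.21 (SE 0.06, adjusted p = 0.0464, exact permutation p = 0.0105). This call sat near the threshold. It remained without control chow replicate 4, control HF/HS replicate 4 or control HF/HS replicate 6 and was lost when any of the other 11 controls was left out, with adjusted p from 0.00993 to 0.0933. It was also lost with limma voom (adjusted p = 0.0524), without a filter on low counts (0.0640) and with upper-quartile normalization (0.0519). The replicate number fitted as a block lost it too (log2 0.20, adjusted p = 0.135 by edgeR). For Foxo1 in HGFAC-KO mice the difference was 0.10 on the log2 scale (SE 0.07, adjusted p = 0.398), and 0.05 without HGFAC-KO HF/HS replicate 2.

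Foxo3 averaged 15.5 ± 2.56 CPM in controls on chow and 17.7 ± 2.40 on HF/HS, and all 7 HF/HS controls lay above the chow median. The log2 fold change was 0.19 (SE 0.11, adjusted p = 0.294) in controls and 0.23 (SE 0.16, adjusted p = 0.434) in HGFAC-KO mice. The former was 0.12 without control chow replicate 2, and the latter 0.09 without HGFAC-KO chow replicate 1.

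**Figure D2:**
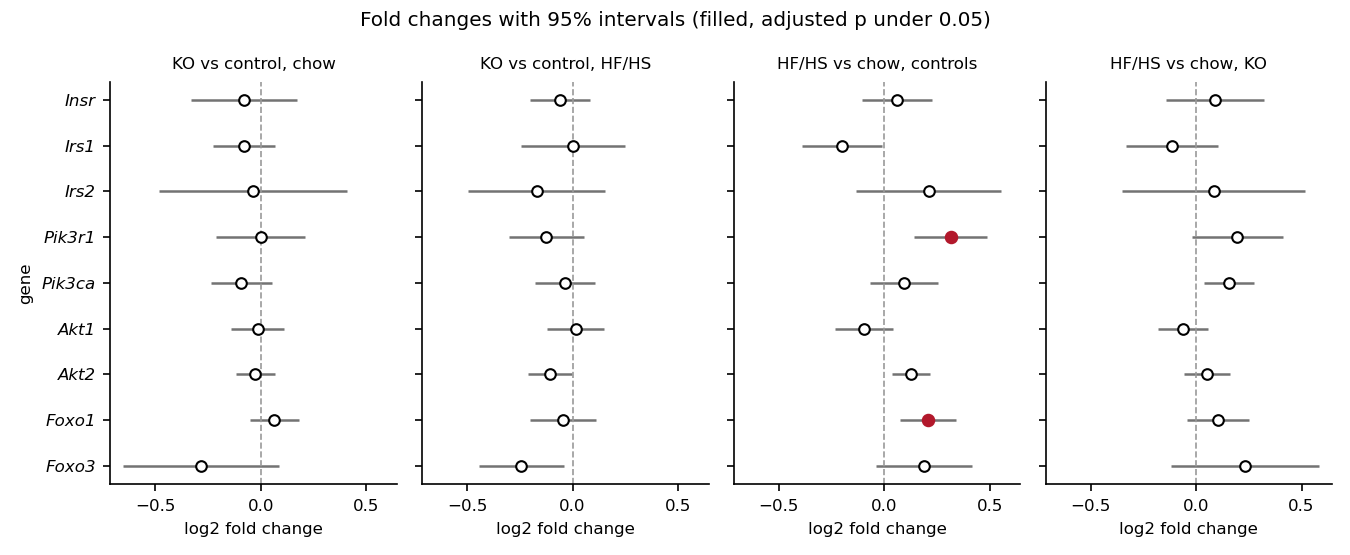
Log2 fold change (x axis) of each of the 9 genes in the 4 comparisons, as points with 95% intervals from edgeR; filled points passed an adjusted p of 0.05. Pik3r1 and Foxo1 are filled for HF/HS against chow in controls, and no point is filled in either genotype comparison.

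A single additive fit of genotype and diet over all 27 mice, chosen after these results had been seen, gave a diet effect averaged over the genotypes. It called 3 of the 9 genes higher on HF/HS and none lower, where 12.1% of 13932 genes were called higher and 23.5% in either direction. These were Pik3r1 at 120% of chow (log2 0.26, SE 0.07, adjusted p = 0.00587), Foxo1 at 112% (0.16, SE 0.05, adjusted p = 0.0145) and Akt2 at 107% (0.09, SE 0.03, adjusted p = 0.0386). Pik3ca followed at 109% with an adjusted p of 0.0556. Irs1 was at 89.7% of chow (adjusted p = 0.103), and Foxo3 at 116% (adjusted p = 0.128). Because these mice are the ones compared above, the additive values are not separate evidence.

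**Figure D3:**
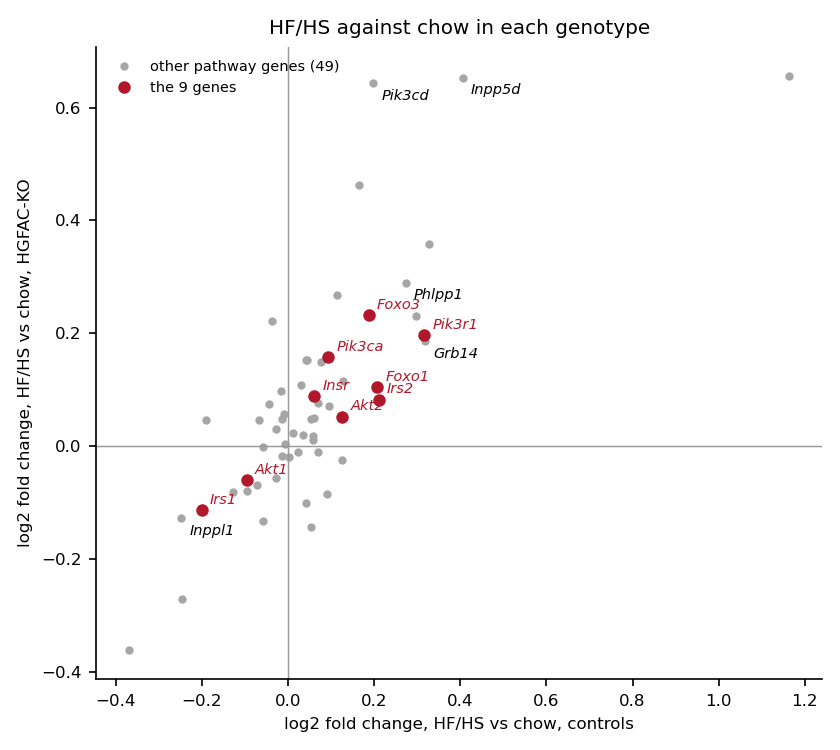
Log2 fold change of HF/HS against chow in controls (x axis) and in HGFAC-KO mice (y axis) for the 9 genes (red) and 49 other insulin pathway genes (grey); the 2 axes use different mice. All 9 genes lie in the lower left or upper right quadrant, as do 33 of the 49 others.

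The comparison of genotypes asked whether loss of HGFAC was accompanied by altered levels of the same components. None of the 9 genes was called on chow, where 0.00737% of 13571 genes were called, which is Hgfac alone. None was called on HF/HS, where 0.0148% of 13544 genes were called. With so few calls in the whole table, the intervals say more than the counts. At an unadjusted p under 0.05 by edgeR, none of the 9 genes passed on chow, beside 5.98% of all genes, and 2 passed on HF/HS, beside 9.64%. DESeq2 and limma voom called none at an adjusted p of 0.05 on either diet. The median log2 fold change of the 9 genes was -0.04 on chow and -0.06 on HF/HS, against 0.0031 and -0.0015 over all genes. On each diet 7 of 9 point estimates were below 0. Among other insulin pathway genes, 38 of 49 were below 0 on chow and 32 of 49 on HF/HS. Over all genes, 51.2% on chow and 49.5% on HF/HS were above 0. The same sign was seen on both diets for 5 of 9 genes, near the 58.6% of all 13422 genes tested on both. These counts include Pik3r1 on chow at a log2 value of 0.00042 and Irs1 on HF/HS at 0.0015. Both values were below 0 with DESeq2 and limma voom.

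Foxo3 gave the largest genotype difference on each diet. Chow-fed controls spanned 11.4 to 18.2 CPM (median 15.2) and chow-fed HGFAC-KO mice 6.20 to 15.9 CPM (median 13.3). With HF/HS, controls spanned 15.2 to 21.9 CPM (median 17.0) and HGFAC-KO mice 12.6 to 17.2 CPM (median 15.1), and 4 of 7 HGFAC-KO mice lay below every control. The HGFAC-KO level was 82.3% of controls on chow (95% interval 63.6% to 106%, adjusted p = 0.820) and 84.5% on HF/HS (73.4% to 97.3%, unadjusted p = 0.0219, adjusted p = 0.452, both by edgeR). Without the HGFAC-KO mouse at 6.20 CPM the log2 fold change on chow was -0.14 in place of -0.28. On chow, 7 of 7 Kupffer cell markers had point estimates below 0 (median log2 -0.29, summed medians 190.5 CPM in controls and 152.9 CPM with HGFAC-KO), as had 5 of 6 sinusoidal endothelial markers (-0.21), while 5 of 5 cholangiocyte markers were above 0 (0.17). None of them was called, and their part in the chow values was not tested. In the additive fit Foxo3 was at 83.3% of controls (unadjusted p = 0.0133, adjusted p = 0.253), and none of the 9 genes was called there, where 0.158% of genes were.

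Akt2 was the other gene with an unadjusted p under 0.05 on HF/HS. HGFAC-KO mice ran from 81.3 to 97.4 CPM (median 87.3) beside 90.6 to 104.3 in controls, and 5 of 7 lay below every control. The level was 92.9% of controls (95% interval 86.4% to 100%, unadjusted p = 0.0490, adjusted p = 0.516 by edgeR). On chow Akt2 was at 98.2% (92.0% to 105%). Markers of other cell types were measured beside these genotype differences on HF/HS. The hepatocyte marker sums given above had the higher median in HGFAC-KO mice, with overlapping ranges and none of 7 markers called, and sinusoidal endothelial markers summed to 138.6 to 231.6 CPM in controls and 129.8 to 198.6 CPM in HGFAC-KO mice, with 5 of 6 point estimates below 0, 2 at an unadjusted p under 0.05 and none called. Their part in the values of Foxo3 and Akt2 was not tested. Pik3r1 was at 91.7% of controls on HF/HS (81.0% to 104%) and at 100% on chow (86.4% to 116%). Its HF/HS value of -0.12 on the log2 scale was -0.07 without control HF/HS replicate 2.

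For the remaining genes the intervals bound the size of any genotype difference. On HF/HS, Insr was at 96.0% of controls (87.1% to 106%), Pik3ca at 97.6% (88.5% to 108%), Akt1 at 101% (92.0% to 111%) and Foxo1 at 96.9% (87.1% to 108%). Irs1 was at 100% with a wider interval (84.4% to 119%), and Irs2 at 88.8% (70.9% to 111%), a log2 value of -0.17 that was -0.08 without control HF/HS replicate 3. On chow, Irs1 was at 94.6% (85.6% to 105%), Insr at 94.6% (79.4% to 113%), Irs2 at 97.4% (71.5% to 133%), Pik3ca at 93.7% (84.8% to 104%), Akt1 at 99.0% (90.8% to 108%) and Foxo1 at 104% (96.3% to 113%). The intervals of Pik3r1, Pik3ca, Akt1, Akt2 and Foxo1 all lay between 81.0% and 116% of controls on both diets.

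Whether diet acted differently in the 2 genotypes was tested by an interaction term in a fit of the 27 mice. None of the 9 genes passed, where 0% of 13932 genes were called and 3.63% had an unadjusted p under 0.05. None of the 9 did so at that unadjusted level by edgeR, and DESeq2 and limma voom called none. The call of Pik3r1 in controls is therefore not shown to differ from its value in HGFAC-KO mice (interaction log2 -0.12, SE 0.14, adjusted p = 0.984), and the same holds for Foxo1 (-0.10, SE 0.09, adjusted p = 0.984).

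Other components of the pathway were read from 4 hand-written lists of 53 genes, of which 49 were tested. In controls on HF/HS, 2 were called higher and 1 lower, where 4.93% of all genes were called higher and 10.5% in either direction. Grb14, an adaptor that inhibits the insulin receptor kinase, rose from 46.0 to 55.4 CPM (median 51.0) on chow to 60.5 to 68.7 (median 64.5) on HF/HS with no overlap (log2 0.32, SE 0.05, adjusted p = 6.64e-04). Phlpp1, a phosphatase that dephosphorylates AKT, rose from 25.4 ± 2.01 to 30.8 ± 4.04 CPM (log2 0.27, SE 0.08, adjusted p = 0.0397). Inppl1, the lipid phosphatase SHIP2 that consumes the product of PI 3-kinase, fell from 59.2 to 70.5 CPM on chow to 48.1 to 57.4 on HF/HS, again with no overlap (log2 -0.25, SE 0.05, adjusted p = 0.00522). The share of all genes whose chow and HF/HS ranges did not overlap in controls was not counted. In HGFAC-KO mice the point estimates of Grb14, Phlpp1 and Inppl1 had the same signs, 0.19, 0.29 and -0.13, and none was called.

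In HGFAC-KO mice 2 other genes of the 49 were called higher on HF/HS and none lower, where 5.89% of all genes were called in either direction. Pik3cd, the PI 3-kinase catalytic subunit typical of leukocytes, rose from 3.19 ± 0.301 (n = 6) to 4.99 ± 0.653 CPM (n = 7; log2 0.64, adjusted p = 0.00186). Inpp5d, the leukocyte lipid phosphatase SHIP1, rose from 3.39 ± 0.505 to 5.33 ± 0.702 CPM (log2 0.65, adjusted p = 0.00439). Beside them, 3 of 7 Kupffer cell markers (Clec4f, Adgre1 and Cd5l) were called higher, and the summed markers went from 123.0 to 188.1 CPM on chow (median 152.9) to 158.9 to 283.9 on HF/HS (median 225.4), with none at 0. The lymphocyte marker Cd4 (1 of 5 tested) and the sinusoidal endothelial marker Stab2 (1 of 6) were called higher as well, and the summed medians of those lists went from 2.41 to 4.50 CPM and from 132.5 to 174.9 CPM. Their part in the result was not tested. Neither genotype comparison called any of the 49 genes, and the median log2 fold change was -0.06 on chow and -0.04 on HF/HS.

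Transcripts known to respond to insulin were read as a further readout. Of 13 that insulin restrains, 2 were called lower on HF/HS and none higher in each genotype, where 10.5% of all genes were called in controls and 5.89% in HGFAC-KO mice. In the list as a whole, 7 of 13 point estimates in controls and 8 of 13 in HGFAC-KO mice were above 0, at medians of 0.09 and 0.04 on the log2 scale. Pdk4, an inhibitor of pyruvate dehydrogenase, fell by 0.93 on the log2 scale in controls (adjusted p = 0.0227) and by 0.98 in HGFAC-KO mice (adjusted p = 0.0272), and Tat, which degrades tyrosine, fell by 0.51 (adjusted p = 0.0480) and by 0.75 (adjusted p = 0.0121). Igfbp1, a FOXO1 target in hepatocytes, pointed the other way at 8.46 ± 3.24 and 16.5 ± 7.22 CPM in controls (adjusted p = 0.0768). Of 11 insulin-induced transcripts tested, Insig1, which restrains SREBP processing, was called lower in controls (log2 -1.04, adjusted p = 0.0141), and none was called in HGFAC-KO mice. The genotype comparisons called none of the 24. Pck1, the gluconeogenic enzyme PEPCK, averaged 1612 ± 795 CPM in controls and 820.4 ± 474 in HGFAC-KO mice on HF/HS (adjusted p = 0.454).

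Of 15 core clock and clock output genes, 2 were called with diet in the controls, both higher, where 4.93% of all genes were called higher and 10.5% in either direction. They were Dbp (16.1 ± 10.8 and 44.7 ± 12.8 CPM, adjusted p = 0.0284) and Nr1d1 (56.5 ± 18.6 and 96.8 ± 20.9 CPM, adjusted p = 0.0272), on chow and HF/HS. Their part in the results for the 9 genes was not tested. In HGFAC-KO mice on HF/HS against controls, 12 of 15 had point estimates below 0, at a median log2 fold change of -0.32. None was called, and 7 of 15 had an unadjusted p under 0.05, beside 9.64% of all genes.

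Levels of the 9 genes were next related to each other from mouse to mouse, as deviations of log2 CPM from the group mean, so that differences of diet and genotype were removed. Of 36 pairs, 22 correlated positively, with a median Pearson r of 0.05 against -0.0034 over all pairs of the 13932 genes. After adjustment over 42 relations, 2 pairs passed, both with Insr. The share of all gene pairs that pass this test was not computed, so the 2 pairs are not shown to exceed it. Genes outside the 9 followed Insr more closely on this measure, with r of 0.96 for Ubr3, 0.93 for Elk4 and 0.93 for Pds5a. Insr and Foxo3 varied together (r = 0.80, permutation adjusted p = 0.00210; Spearman rho = 0.71, adjusted p = 0.00294), with r of 0.83, 0.84, 0.62 and 0.67 within the controls on chow, HGFAC-KO mice on chow, controls on HF/HS and HGFAC-KO mice on HF/HS. Without the 2 mice farthest from the median of Insr, r was 0.62 (adjusted p = 0.0302).

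Insr and Pik3ca also varied together (r = 0.57, permutation adjusted p = 0.0105; rho = 0.60, adjusted p = 0.0290), and r was 0.59 without the same 2 mice (adjusted p = 0.0302). Within groups r was 0.93 in controls on chow, 0.20 in HGFAC-KO mice on chow, 0.70 in controls on HF/HS and 0.68 in HGFAC-KO mice on HF/HS. Insr with Pik3r1 (r = 0.58, permutation adjusted p = 0.0959) and Irs1 with Pik3ca (r = 0.54, adjusted p = 0.0701) did not pass. The lowest value was that of Irs1 with Foxo1 (r = -0.50, permutation adjusted p = 0.127). Deviations of Insr, Foxo3 and Pik3ca correlated with the share of counts in the 10 most abundant genes at -0.29, -0.37 and 0.02, and with the share of counts on unnamed rows at 0.26, 0.21 and 0.09.

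**Figure D4:**
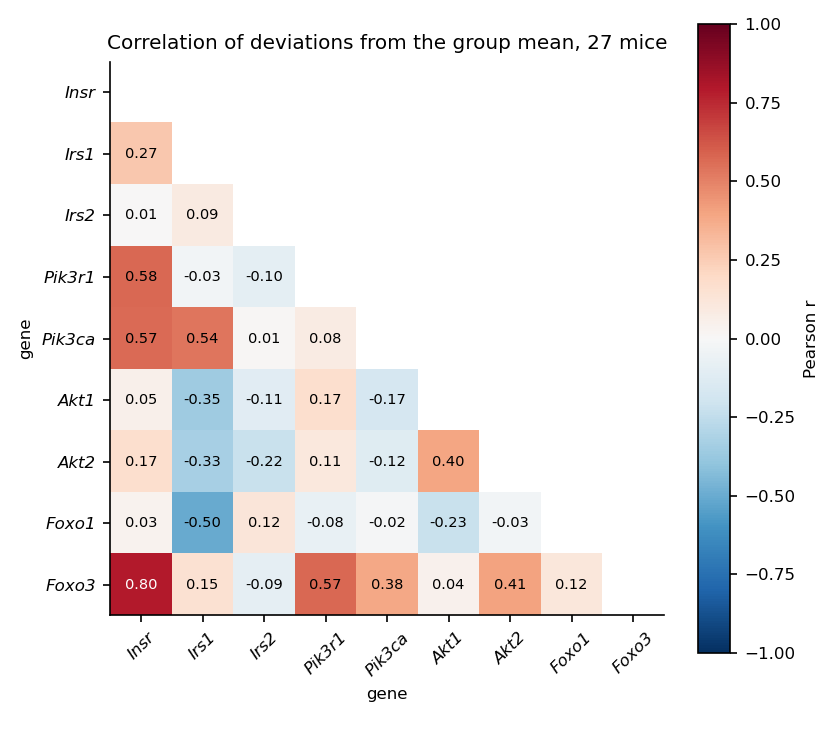
Pearson r between the 9 genes for deviations of log2 CPM from the group mean over 27 mice (color scale from -1 to 1, values printed in the cells). Insr with Foxo3 is highest at 0.80, and Irs1 with Foxo1 is lowest at -0.50.

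**Figure D5:**
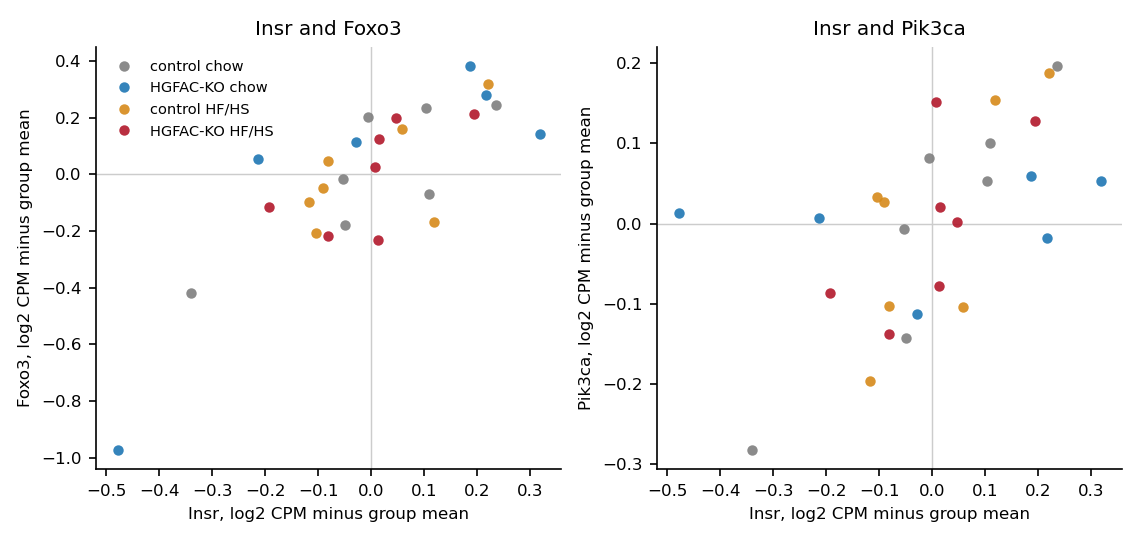
Deviation of Insr (x axis) against that of Foxo3 (left) and Pik3ca (right) in log2 CPM, 1 point per mouse, colored by group. In the Foxo3 plot r within the groups is 0.62 to 0.84, and in the Pik3ca plot it is 0.20 to 0.93. The HGFAC-KO mouse on chow with 6.20 CPM of Foxo3 lies at the lower left of the Foxo3 plot.

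Irs2 did not pass the same test with any of 6 transcripts of insulin and fasting responses. Its deviations correlated with those of Ppargc1a, a fasting coactivator, at r = 0.41 (permutation adjusted p = 0.127) and with Igfbp1 at r = 0.39 (adjusted p = 0.241). With Pck1, G6pc and Srebf1, r lay between -0.14 and 0.15.

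Among the 13932 genes, the 3 whose log2 CPM followed each of the 9 most closely over the 27 mice were ranked by Pearson r as a description. Insr was followed by Ubr3 (0.95), Elk4 (0.92) and Pds5a (0.92), the highest values for any of the 9. Pik3ca was followed by Fnip1 (0.90), Ddx6 (0.89) and Pum2 (0.88). Foxo3 was followed by Nudt12 (0.89), Nudt12os (0.88) and Zhx1 (0.86), and Pik3r1 by Gm49336, Nup205 and Gspt1 (each 0.84). Akt2 was followed by Pcx (0.82), Grhpr (0.82) and 1810055G02Rik (0.81), and Akt1 by Sidt2, Cptp and Abcf2 (0.75 to 0.78). For Foxo1 (Kansl1, Eml4 and Pcdhga10) and Irs1 (Npr3, Gpr12 and Usp20) the values were 0.71 to 0.74. The nearest to Irs2 was 9530052E02Rik (0.74), whose exons overlap it on the opposite strand, and reads of the pair may not have been told apart. None of the nearest genes was another of the 9.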

How the data were processed

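Counts per gene of 27 liver libraries (stranded mRNA kit, paired-end reads) were deposited by the authors in 1 table without normalization, after alignment to GRCm38 (mm10) with HISAT2 and counting with featureCounts 1.6.3 (version from the submitters' processing notes). The annotation and strand setting of the counting were not given in the sources used here. Rows that share a symbol were summed (89 symbols), and 3886 of 27179 rows without a gene name, holding 4.13% to 12.1% of a library's counts, entered neither library sizes nor tests. All 78 pairs of libraries within groups differed by more than counting noise (chi-square per gene at least 17.7).

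The main test used edgeR 4.0.16 (R 4.3.3), with TMM, filterByExpr (minimum count 10), a robust quasi-likelihood fit over the whole table using the mice of the groups compared, and Benjamini-Hochberg adjustment at 0.05. CPM are TMM-normalized, and log2 values add a prior count of 2. Exact permutation tests were two-sided over all splits, and correlations used 100000 permutations within groups, over 36 pairs of the 9 genes and 6 pairs of Irs2 with other genes. The smallest p that the exact tests allow is 0.000583. Alternatives were DESeq2 1.42.0, limma voom 3.58.1, 2 filters, upper-quartile normalization, a fit of all 27 mice, a replicate block and leaving out each mouse. The fits were tested on simulated data.

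The genes, lists, motifs and tests were chosen with earlier results of these data known. Named were the 9 genes, Hgfac, up to 3 genes of a list with the smallest p per comparison, 6 genes related to Irs2, and the 3 genes most like each of the 9. A few listed genes are not reported here. Mice were separate animals per the labels, which give them replicate numbers but no litter or batch. Exon lengths came from GENCODE vM21 and promoters from RefSeq.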

Additional observations from a re-analysis of the deposited data

Results flagged for a closer look

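Foxo3 in HGFAC-KO chow replicate 1 was 6.20 CPM, while the other 5 mice of that group lay between 12.7 and 15.9 CPM. The gap to the nearest mouse was 0.667 of the group's range, above Dixon's critical value for 6 samples. It was the only value so placed among 36 groups examined (9 genes in 4 groups), and chance alone places about 1 in 20 there. The same mouse was the lowest of its group for 6 of the 9 genes, with Insr at 81.6 CPM and Pik3r1 at 72.8 CPM. Its library held 41723648 counts, inside the range of its group, and its 10 most abundant genes took 19.5% of counts, the highest share of its group. The part of that share in its values was not tested.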

How the results depend on the processing

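Of 1071 values of the 9 genes under the alternatives, 1004 kept their direction and their side of the threshold, 17 were no longer past it, 5 came past it and 45 changed sign, none of which was called. In controls, the count of 2 genes called with diet was 1 (Pik3r1) with limma voom, without a filter or with upper-quartile normalization, and 0 with the replicate block (Pik3r1 log2 0.31, adjusted p = 0.0887; Foxo1 0.20, adjusted p = 0.135), where the fold changes were close to those without it. It ran from 0 to 2 when a mouse was left out. DESeq2 gave 3, with Akt2 added, and so did the additive fit. In HGFAC-KO mice the count of 0 became 3 in that fit. The labels do not say whether the replicate numbers pair mice. Same-numbered deviations correlated above 0.1 in 0 of 7 pairs for diet in controls and in 1 of 6, 3 of 7 and 4 of 6 pairs elsewhere. So few pairs cannot show whether same-numbered mice shared a litter or batch. For diet in controls the block lowered calls over all genes from 1424 to 774. In the other comparisons it changed no call of the 9 genes.

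Over all genes, DESeq2 called 13 on chow and 55 on HF/HS between genotypes (edgeR 1 and 2), and 1401 for diet in HGFAC-KO mice (edgeR 802). With a mouse left out, calls ran from 976 to 1780 for diet in controls, from 467 to 950 for diet in HGFAC-KO mice and from 2 to 11 for genotype on HF/HS. The additive fit called 3268 with diet and 22 with genotype.

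Changes of sign were as follows. For genotype on chow, Pik3r1 (main value 0.00042) was -0.0016 with DESeq2, -0.014 with limma voom, -0.0020 without a filter, -0.033 with the replicate block, -0.0045 in the fit of all 27 mice and -0.067 in the additive fit, and Irs2 was 0.020 with the replicate block. For genotype on HF/HS, Irs1 was -0.00052 with DESeq2, -0.00028 with limma voom, -0.00076 without a filter, -0.0016 with at least 10 counts in every library, -0.0014 with the replicate block and -0.041 in the additive fit, where Akt1 was -0.0025 and Foxo1 0.0034. With a mouse left out, genotype on chow ran from -0.15 to 0.00024 for Insr, -0.13 to 0.10 for Irs2, -0.054 to 0.078 for Pik3r1 and -0.043 to 0.0076 for Akt1. Genotype on HF/HS ran from -0.065 to 0.053 for Irs1 and -0.012 to 0.055 for Akt1. Diet in HGFAC-KO mice ran from -0.060 to 0.18 for Irs2, and the interaction from -0.056 to 0.093 for Insr and -0.098 to 0.12 for Foxo3. The cause was not tested. The lowest count of any of the 9 genes in a library was 182, for Irs2.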
